A study of Mus musculus with 2 samples.

Results

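Enzymes and pumps that clear foreign compounds were followed in samples labelled as jejunum of male C57BL/6J mice through 8 genes: the cytochromes P450 Cyp2c29, Cyp2c38, Cyp2c55 and Cyp2b10, the reductase Akr1c20, the glutathione transferase Gstp1, and the efflux pumps Abcc2 and Abcb1a. They were chosen by symbol in the authors' deposited comparison of the diets, where each has 1 probe set, so they are 8 of the 1559 genes named there. The high-glucose group ate a diet labelled HGD with 20% glucose, and the control group a regular chow labelled AIN76, each for 4 weeks. All mice were 4 weeks old at the beginning, were acclimated for 2 weeks, and were 10 weeks old at sampling. Each diet was measured on 1 Affymetrix array, so no value below has a replicate error and no test of the diets is possible. The number of animals behind an array is, in the sources used here, not given.

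The clearance of foreign compounds runs in steps. Cytochromes P450 oxidise a compound with electrons handed on by the reductase Por, transferases then couple the product to glutathione, sulfate or glucuronic acid, and pumps of the ABC family carry the conjugate out of the cell. In the small intestine these genes act in enterocytes, in the liver they act in hepatocytes, and many of them are switched on by the nuclear receptors CAR (Nr1i3) and PXR (Nr1i2), by the aryl hydrocarbon receptor AhR or by the oxidative stress factor Nrf2.

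In the signals, Cyp2c55 and Cyp2b10 were more than 2-fold lower on the high-glucose array beyond the general difference between the arrays, and Gstp1 was more than 2-fold higher. Akr1c20 lay just short of 2-fold lower. Cyp2c29, Cyp2c38 and the pumps lay nearer the general difference. The authors' deposited comparison gave another picture, with all 4 cytochromes and Akr1c20 listed higher on the high-glucose diet and Gstp1 and both pumps listed lower.

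The upstream sequences are shown for the genes on which this contrast turns, namely the 3 past 2-fold in the signals and, beside them, Cyp2c29 and Cyp2c38, whose signals stayed near the general difference while their listed ratios were well above 0. Each line gives the 250 bases before the annotated start, read 5′ to 3′ on the gene's strand, from RefSeq on GRCm38.p6. Capitals mark every match, on either strand, to the searched motifs, which were the TATA box TATAAA, the nuclear receptor half-sites AGGTCA and AGTTCA, the AP-1 site TGAGTCA, the antioxidant response element core TGACNNNGC and the AhR core GCGTG.
Cyp2c55, chr19:39006769-39007018 (+): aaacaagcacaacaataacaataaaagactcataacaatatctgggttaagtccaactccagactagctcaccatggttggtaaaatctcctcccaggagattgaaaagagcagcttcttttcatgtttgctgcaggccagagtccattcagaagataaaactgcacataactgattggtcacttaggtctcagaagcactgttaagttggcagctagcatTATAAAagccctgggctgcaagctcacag
Cyp2b10, chr7:25897408-25897657 (+): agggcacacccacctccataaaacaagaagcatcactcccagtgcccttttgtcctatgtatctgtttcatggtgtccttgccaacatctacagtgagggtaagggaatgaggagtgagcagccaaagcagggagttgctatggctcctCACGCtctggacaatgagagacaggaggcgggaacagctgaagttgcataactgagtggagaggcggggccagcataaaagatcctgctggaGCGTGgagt
Gstp1, chr19:4037913-4038162 (-): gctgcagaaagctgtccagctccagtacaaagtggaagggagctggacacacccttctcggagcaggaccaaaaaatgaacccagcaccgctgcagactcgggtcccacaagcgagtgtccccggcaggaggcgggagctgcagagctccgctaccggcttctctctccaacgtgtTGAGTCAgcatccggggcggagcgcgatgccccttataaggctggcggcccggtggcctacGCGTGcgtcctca
Cyp2c29, chr19:39286835-39287084 (+): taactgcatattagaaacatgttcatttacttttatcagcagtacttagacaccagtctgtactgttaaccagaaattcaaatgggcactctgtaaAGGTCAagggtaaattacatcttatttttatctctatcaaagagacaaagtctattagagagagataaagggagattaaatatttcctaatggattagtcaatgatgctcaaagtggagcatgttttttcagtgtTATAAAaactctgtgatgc
Cyp2c38, chr19:39463076-39463325 (-): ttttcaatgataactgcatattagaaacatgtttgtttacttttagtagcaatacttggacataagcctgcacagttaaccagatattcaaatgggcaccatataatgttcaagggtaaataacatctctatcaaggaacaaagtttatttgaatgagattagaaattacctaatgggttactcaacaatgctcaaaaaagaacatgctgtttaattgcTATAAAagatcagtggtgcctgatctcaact
The table of promoters held 7 of the 8 genes. TATAAA stood in those of Cyp2c29, Cyp2c38 and Cyp2c55, and in 12.4% of 32851 promoters of the same length. TGAGTCA stood in that of Gstp1 and in 4.46% of all promoters. GCGTG stood in those of Gstp1 and Cyp2b10 and in 28.2% of all, and AGGTCA in those of Cyp2c29 and Abcc2 and in 14.0% of all. The promoters of Cyp2c29 and Cyp2c38 were the most alike of any pair of the genes, with 68.8% identical columns in a global alignment, against 52.2% for Cyp2c29 and Cyp2c55. On GRCm38.p6, 5 of the 8 genes lie on chromosome 19, namely the 3 Cyp2c genes, Gstp1 and Abcc2. Cyp2c39 is the only protein-coding gene between Cyp2c29 and Cyp2c38 there, and Gstp1 has its near-identical copy Gstp2 as its neighbour. A motif match is a description of the letters and not evidence of binding.

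The levels came from MAS5 signals, Affymetrix's summary of each probe set on a linear scale, with a scaling that, in the sources used here, is not given. The median signal over 22690 probe sets was 7.9 on the high-glucose array and 13.1 on the control array. Probe sets whose mean log2 signal reached the median of all non-control sets were counted as expressed, and these were 11315. Over these, the median log2 ratio of high-glucose over control was -0.97, a 1.96-fold lower level that is called the array-wide shift. A relative log2 ratio below is the log2 ratio minus that shift, so 0 means that a gene differed between the arrays as much as the median probe set did. The shift was not even across levels: the 351 expressed probe sets with a mean log2 signal over 10 had a median relative log2 ratio of 0.28. The second measure was the signal log ratio, or SLR, of the authors' deposited table, a log2 value of high-glucose over control. That table lists 1625 probe sets. How they were selected and scaled, and from which arrays the SLR was computed, is in the sources used here not given, and no listed SLR is 0. The number of arrays limits the precision of both measures.

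The labelled tissue was set against marker genes named in the comparison table. The lists held 20 liver and 15 enterocyte markers, of which 4 and 6 were named there. Of the 4 liver markers, 3 (Serpina1a, C3 and Plg) lay above the 90th percentile of both arrays. All 5 named pancreatic acinar markers lay above the 90th percentile of the control array, and none (0) did on the high-glucose array. Of 6 enterocyte markers, 5 counted as expressed, but only Fabp2, the intestinal fatty acid binding protein, lay above the 90th percentile of either array, and the glucose carrier Slc5a1 had signals of 0.8 on the high-glucose array and 4.6 on the control array. Anpep lay at percentile 79.3 of the high-glucose array and 78.8 of the control array. None (0) of 5 Paneth cell and 2 of 4 goblet cell markers counted as expressed. So did 2 of 8 smooth muscle and 1 of 8 B cell markers, beside 1110 of all 1625 listed probe sets. Of these, the goblet cell marker Zg16 lay above the 90th percentile of the control array, and the B cell marker Igkc above that of both arrays. The liver, acinar and enterocyte levels go against a pure jejunum on the signal arrays, which are therefore called the arrays labelled as jejunum. Several of the 8 genes are also strongly expressed in mouse liver, and a difference in the share of a cell type cannot be told apart here from a difference in RNA per cell.

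**Figure D1:**
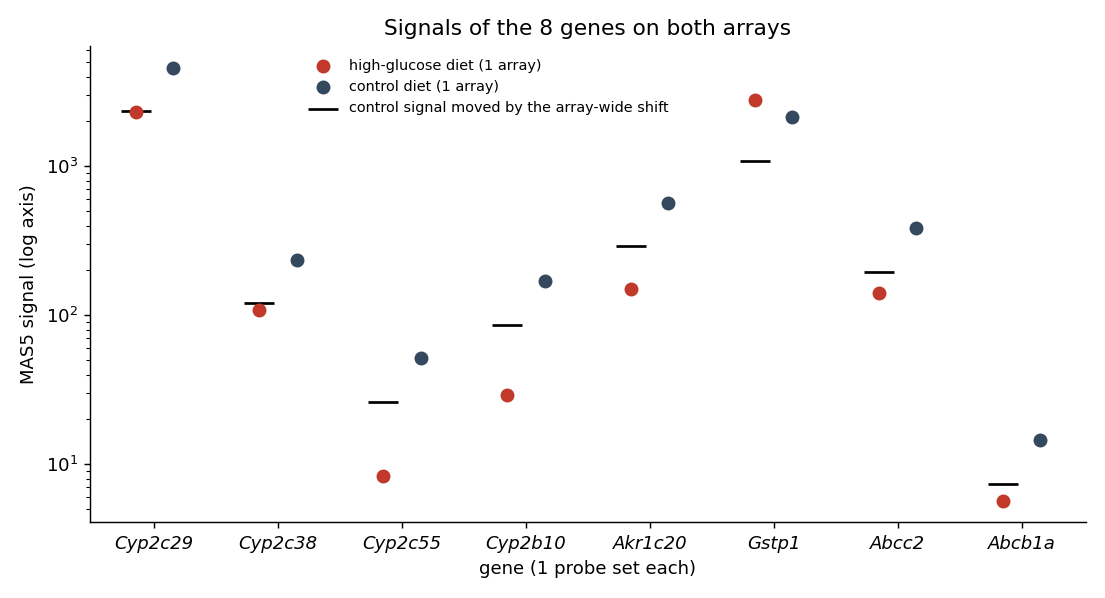
MAS5 signals (log axis) of the 8 genes, 1 probe set each, on the high-glucose array (red, left) and the control array (dark, right), with a black line where the high-glucose signal would lie at the array-wide shift of -0.97. The red points of Cyp2c55, Cyp2b10 and Akr1c20 lie well under their lines, that of Gstp1 lies above its line and above the control point, and those of Cyp2c29 and Cyp2c38 lie on or close to them.

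Cyp2c55 is a cytochrome known from the mouse intestine that oxidises arachidonic acid and responds to activators of CAR and PXR. Its signal was 8.4 on the high-glucose array and 51.4 on the control array, a level 6.12-fold lower as deposited. Its relative log2 ratio was -1.64, a 3.12-fold lower level beyond the shift. Cyp2b10, the classic target gene of CAR, had a signal of 29.3 on the high-glucose array and 169 on the control array. Beyond the shift this was a 2.94-fold lower level, at a relative log2 ratio of -1.56. These 2 of the 7 genes counted as expressed lay 2-fold or more under the shift, as did 4.97% of all expressed probe sets. Cyp2c55 counted as expressed only through its control signal, since its high-glucose signal of 8.4 lay under the limit of 9.45, so its place in that count supports nothing. Cyp2b10 lay over the limit on both arrays. Among 1708 other probe sets of its level (mean log2 signal within 0.5), 19 (1.11%) had as low a ratio, and the central 95% of them began at -1.20. The difference between the log2 ratios of Cyp2b10 and Cyp2c55 was 0.09, a value that no constant scaling factor of the arrays can move.

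In the authors' deposited table, both genes stood on the other side of 0. The SLR of Cyp2c55 was 1.4, a listed 2.64-fold higher level, and that of Cyp2b10 was 0.8, a listed 1.74-fold higher level. The signal arrays and the table thus gave opposite signs for the pair with the lowest signal ratios. Pancreatic acinar markers were lower on the same array as these genes. All 5 named ones lay 2-fold or more under the shift, as did 4.97% of all expressed probe sets. Clps and Reg1 counted as expressed only through the control array, since their high-glucose signals of 4.7 and 5.4 lay under the limit of 9.45. Their place in that count supports nothing. The summed signal of the 5 markers was 93.2 on the high-glucose array and 3975 on the control array, and none was at 0. The part of other tissue in the values of Cyp2c55 and Cyp2b10 was not tested. The 4 liver markers, with summed signals of 9541 and 13517 on the high-glucose and control arrays, had relative log2 ratios between -0.59 (Habp2) and 0.65 (Serpina1a), and none was at 0. By SLR, 3 of these 4 stood above 0 in the authors' deposited table, as did 36.0% of all listed probe sets. Plg was listed at 4.2 and Serpina1a and Habp2 at 1.2 each, while C3 was listed at -0.6. All named goblet cell, Paneth cell and smooth muscle markers stood above 0 too, from 0.5 (Zg16) to 1.3 (Tagln). Enterocyte, acinar and B cell markers fell on both sides of 0. The 4 cytochromes and Akr1c20 stood above 0, and the part of liver-typical or other RNA in their listed values was not tested.

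Cyp2c29, a cytochrome that is abundant in mouse liver and oxidises arachidonic acid as well as drugs, had a signal of 2312 on the high-glucose array and 4597 on the control array. Relative to the shift its log2 ratio was -0.02, so it differed between the arrays as much as the median probe set. Bright probe sets as a class lay above the shift, and 75 others of its level had a median relative log2 ratio of 0.45, of which 7 had as low a ratio as Cyp2c29. When the ratio was centred on probe sets of like level by loess, its value was -0.33. Cyp2c38, a related enzyme of arachidonic acid metabolism, had a signal of 108 on the high-glucose array and 235.8 on the control array, and a relative log2 ratio of -0.16. Of 1045 others of its level, 425 had as low a ratio, which placed Cyp2c38 in the middle of the distribution.

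The table separated these relatives. The SLR of Cyp2c38 in the authors' deposited table was 4.4, which placed it at rank 26 from the top of 1625 probe sets, whereas that of Cyp2c29 was 1.4, the same value as for Cyp2c55. On the SLR scale Cyp2c38 therefore stood 3 above Cyp2c29. On the signal scale it stood at -0.13 against it. Within the Cyp2c genes, the signals set Cyp2c55 apart instead, at a log2 ratio 1.62 under that of Cyp2c29 (difference -1.62). Genes of the Cyp2c family resemble each other in sequence, so a probe set may also bind transcripts of a relative, which was not tested.

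Akr1c20, a member of the aldo-keto reductase family that reduces carbonyl groups of steroids and foreign compounds, had a signal of 150.3 on the high-glucose array and 570.7 on the control array. Its relative log2 ratio was -0.95, a 1.94-fold lower level that missed the 2-fold mark by 0.05 on the log2 scale. Of 641 probe sets of its level, 18 (2.81%) had as low a ratio. In the authors' deposited table it was listed 13.9-fold higher, with an SLR of 3.8 at rank 51 from the top, and the gap of 4.75 between its SLR and its relative log2 ratio was the widest of the 8 genes. Its relatives Akr1c12 and Akr1c13 had relative log2 ratios of -0.15 and -0.53. The SLR of Akr1c12 was -0.2 and that of Akr1c13 was -0.4, both negative in the authors' deposited table, where Akr1c20 was strongly positive.

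**Figure D2:**
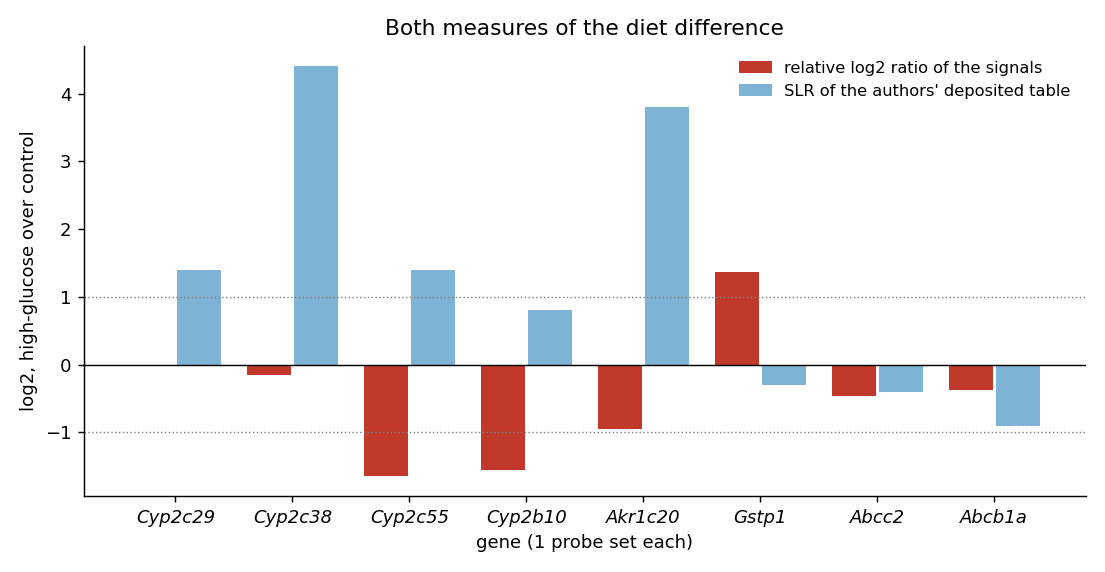
Relative log2 ratio of the signals (red) and SLR of the authors' deposited table (blue) for the 8 genes, both as high-glucose over control, with dotted lines at 2-fold. Red and blue bars point opposite ways for all genes but Abcc2 and Abcb1a, and the widest gaps are those of Akr1c20 (-0.95 and 3.8) and Cyp2c38 (-0.16 and 4.4). The red bar of Cyp2c29 (-0.02) barely leaves the zero line.

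Gstp1, the pi-class transferase that couples glutathione to electrophiles, was the single gene of the 8 with a higher signal on the high-glucose array as deposited. Its signal was 2804 on the high-glucose array and 2125 on the control array, whereas 94.7% of expressed probe sets were lower as deposited. Measured from the shift, its log2 ratio was 1.37, a 2.59-fold higher level. It was the 1 gene of the 7 counted as expressed at least 2-fold higher relative to the shift, as were 4.92% of expressed probe sets. Bright probe sets tended to lie above the shift here too, with a median of 0.35 over 113 others of its level, but only 1 of these (0.885%) had as high a ratio as Gstp1. After loess centring its value was 1.11. Enterocyte markers also lay above the shift, with the exception of Anpep. Of the 5 counted as expressed, 2 were at least 2-fold higher relative to it, namely Mep1a at 1.86 and Fabp2 at 1.26. The others lay between -0.06 (Anpep) and 0.85 (Slc2a5). Mep1a counted as expressed only through its high-glucose signal of 13, since its control signal of 7 lay under the limit of 9.45. Its place in that count therefore supports nothing. Fabp2 was, like Gstp1, higher as deposited, with signals of 557.9 on the high-glucose array and 455.3 on the control array. The summed signal of all 6 named enterocyte markers was 624.9 on the high-glucose array and 561.3 on the control array, and none was at 0. Most of both sums came from Fabp2 alone, while Anpep, Slc2a5, Treh and Slc5a1 were lower as deposited. The part of these markers in the value of Gstp1 was not tested. The log2 ratio of Gstp1 stood 2.93 above that of Cyp2b10, under any constant scaling factor of the arrays. The SLR of Gstp1 in the authors' deposited table was -0.3, a listed 1.23-fold lower level. Its probe set may also detect the near-identical Gstp2, so the value is uncertain as to the copy.

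The pumps were the genes on which both measures pointed the same way. Abcc2 exports glutathione and glucuronide conjugates across the apical membrane of enterocytes and hepatocytes. Its signal was 141 on the high-glucose array and 382.9 on the control array, with a relative log2 ratio of -0.47, and its SLR in the authors' deposited table was -0.4. The measures thus differed by 0.07, the smallest gap of the 8 genes. Of 781 probe sets of its level, 121 (15.5%) had as low a ratio, so the value lay within the ordinary spread. Its probe set carries the suffix that Affymetrix gives to sets shared between transcripts. Abcb1a encodes the P-glycoprotein that pumps hydrophobic drugs back into the gut lumen. Its signal was 5.7 on the high-glucose array and 14.5 on the control array. Its mean log2 signal of 3.18 lay just under the limit of 3.24, so it was the 1 gene not counted as expressed. Its relative log2 ratio was -0.38, and its SLR was -0.9 in the authors' deposited table.

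**Figure D3:**
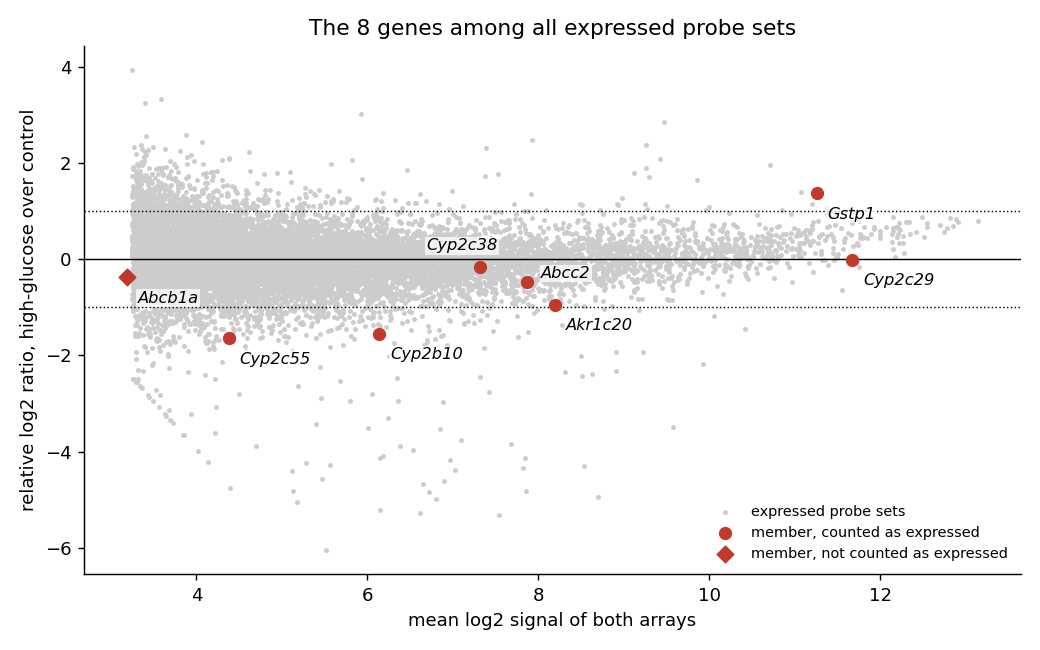
Relative log2 ratio (high-glucose over control) against the mean log2 signal of both arrays for 11315 expressed probe sets (grey) and the 8 genes (red, with a diamond for Abcb1a, which did not count as expressed). Dotted lines mark 2-fold, and Cyp2c55 (-1.64), Cyp2b10 (-1.56) and Gstp1 (1.37) lie outside them, while the grey points bend upward at high signals.

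Over the 7 genes counted as expressed, 6 had a negative relative log2 ratio, beside 50.4% of expressed named genes. Their median was -0.47, while the quartiles of all expressed probe sets were -0.35 and 0.36. By the SLR of the authors' deposited table, 3 of the 8 genes were negative and 5 positive, beside 64.0% and 36.0% of all listed probe sets. Their median SLR was 1.1, against -0.4 over the authors' deposited table. An SLR of 1 or more was listed there for 4 of the 8 genes and for 18.1% of the probe sets, and one of -1 or less for none (0) of the 8 and for 9.85%. The signs of SLR and relative log2 ratio were opposite for 6 of the 7 genes counted as expressed, and for 465 of all 1110 listed and expressed probe sets (41.9%). All 5 genes with a positive SLR had a negative relative log2 ratio, as did 109 of 307 such probe sets (35.5%). Both counts take Cyp2c29 as negative at -0.02, a sign that depends on the setting. The count of opposite signs also takes Gstp1 as negative by an SLR of -0.3, which lies above the median of -0.4 over the authors' deposited table. Since the genes were taken from a table in which no listed SLR is 0, and were grouped with results of these data known, the counts describe these genes and support no direction.

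Other genes of the same processes were read from lists of 271 symbols, of which 28 genes were named in the comparison table and 25 counted as expressed. Of these 25, none (0) lay 2-fold or more under the shift and 2 lay as far above it, beside 5.34% and 3.84% of expressed named genes. Their median relative log2 ratio was -0.15, and 17 of the 25 were negative, beside 50.4% of expressed named genes. By the SLR of the authors' deposited table, 21 of the 28 were negative, beside 64.0% of all listed probe sets. Their median SLR was -0.35, against -0.4 over that table. The signs of both measures were opposite for 8 of the 25, beside 41.9% of listed and expressed probe sets.

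Among cytochromes and their electron donors, Por, the reductase that supplies electrons to the microsomal cytochromes, had a signal of 516.2 on the high-glucose array and 453.5 on the control array. Its relative log2 ratio of 1.16 pointed away from those of Cyp2c55 and Cyp2b10, and its SLR in the authors' deposited table was -0.5. Cytochrome b5 (Cyb5a), which also donates electrons, had a relative log2 ratio of 0.67 and, by the authors' deposited table, an SLR of 0.5. Cyp2a4, a steroid hydroxylase measured by a probe set shared between transcripts, had signals of 396.6 on the high-glucose array and 876.4 on the control array, a relative log2 ratio of -0.17. The authors' deposited table listed it at -2.0, opposite in sign to all 4 cytochromes above. Cyp2c65, the neighbour of Cyp2c55 on chromosome 19, did not count as expressed. Its signals were 2.6 on the high-glucose array, under the floor of 2.9, and 7.9 on the control array, which put it at least 1.39-fold lower beyond the shift. Its SLR in the authors' deposited table was 1.0, on the same side of 0 as that of Cyp2c55.

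Beside 5.34% lower and 3.84% higher of expressed named genes, none (0) of the 7 other oxidising, reducing and hydrolysing enzymes passed 2-fold relative to the shift. Their relative log2 ratios lay between -0.53 (Akr1c13) and 0.57 (Akr1b8), around a median of -0.15. In the authors' deposited table the alcohol dehydrogenase Adh1 stood at -1.4, Xdh, which oxidises purines, at -0.8, and the reductase Akr1b8 at 1.1.

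Of expressed named genes, 5.34% lay 2-fold or more under the shift and 3.84% as far above it. Among 7 expressed conjugating enzymes, none (0) lay as far under it and 1 lay as far above it. This was the sulfotransferase Sult5a1, with signals of 20.2 on the high-glucose array and 18.7 on the control array, a relative log2 ratio of 1.08 and, by the authors' deposited table, an SLR of 1.9. Gclc, the catalytic subunit of the enzyme that limits glutathione synthesis, had a signal of 228.9 on the high-glucose array and 813.5 on the control array, a relative log2 ratio of -0.86. Gclc thus lay on the opposite side of the shift from Gstp1, which uses glutathione. Other glutathione transferases did not share the position of Gstp1: the relative log2 ratio was -0.18 for Gstm1, -0.38 for Gsta4 and -0.51 for Gstm3. The SLR in the authors' deposited table was 0.4 for Gstm1, 0.7 for Gsta4, -0.5 for Gstm3, and -0.6 each for Papss2, which makes the sulfate donor, and Sult2b1.

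The pump Abcg2, the only gene of the list of xenobiotic and bile transporters that was named in the comparison table, had a signal of 94.1 on the high-glucose array and 200.8 on the control array, a relative log2 ratio of -0.12 and, by the authors' deposited table, an SLR of 0.6. Of the regulators, Ppara, Rxra and Hsp90ab1 counted as expressed and lay near the shift, at relative log2 ratios of -0.03, 0.14 and 0.23. Rxra is the partner through which CAR and PXR bind DNA. All 4 named regulators were negative by the SLR of the authors' deposited table, as were 64.0% of all listed probe sets. Among these regulators, Ppara stood at -0.7, Rxra at -0.6 and the Nrf2 inhibitor Keap1 at -0.5. The mean level of Keap1 lay under the limit for expression, and its high-glucose signal of 2.2 was below the floor of 2.9. The 6 named targets of AhR and Nrf2 all counted as expressed, and their median relative log2 ratio was -0.28. None (0) of them passed 2-fold relative to the shift, beside 5.34% lower and 3.84% higher of expressed named genes. Of the 6, Gclc, Gsta4 and Gstm1 are also among the conjugating enzymes above. The AhR target Tiparp stood at 0.33, while the authors' deposited table listed it at -0.5.

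**Figure D4:**
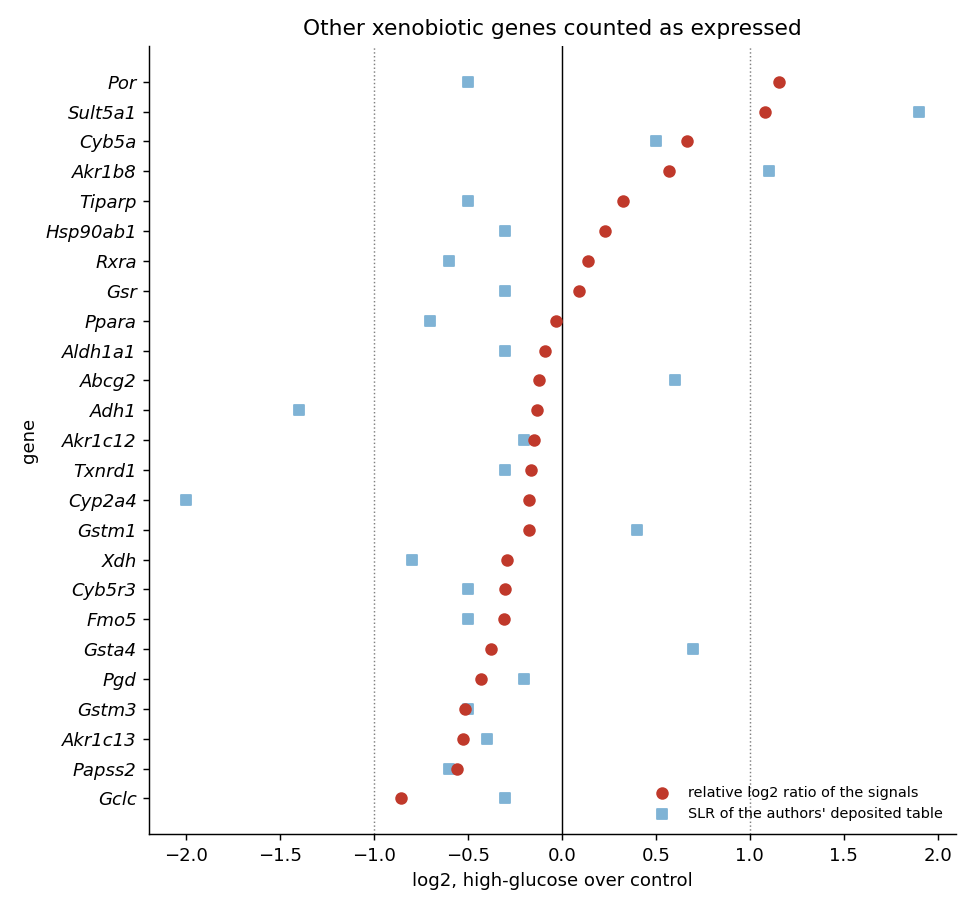
Relative log2 ratio of the signals (red circles) and SLR of the authors' deposited table (blue squares), as high-glucose over control, for the 25 other xenobiotic genes counted as expressed, in order of the relative log2 ratio. Por and Sult5a1 lie past the dotted 2-fold lines by signal, and Cyp2a4, Adh1, Akr1b8 and Sult5a1 by SLR.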

How the data were processed

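Total RNA (6 ug) was labelled by the standard Affymetrix procedure, per the labels' protocols, and hybridised to 1 array per diet. The authors deposited intensity values made with MAS5, per the submitters' processing notes, and a table of SLR values on the log2 scale, whose direction comes from its title. The signed fold change score in the authors' deposited table equals the SLR turned into a fold and was not used further. Gene names came from that table, updated through RefSeq of GRCm38.p6 for 213 probe sets, and 42 probe sets have no symbol.

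Lower signals were raised to a floor of 2.9, the average 25th percentile of the arrays. Probe sets with a mean log2 signal of at least the median of 22626 non-control probe sets counted as expressed. Past 2-fold relative to the array-wide shift was the call. Other genes were represented by their brightest probe set. Named were all 8 members, up to 4 expressed genes per list past 1.5-fold with the largest ratios, the 3 of largest SLR per list and up to 3 markers. Akr1c12, Akr1c13, Gstm3, Hsp90ab1 and some markers were added after values had been seen. The members and lists were chosen with earlier results of these data known. Alternatives were 4 scalings, other floors, filters and thresholds, and the SLR. The steps were tested on simulated data. Python 3.11.15, pandas 2.3.3, statsmodels 0.14.6 and Biopython 1.88 were used.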

Additional observations from a re-analysis of the deposited data

How the results depend on the processing

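The 8 genes were recomputed under 4 scalings (one median, one 2% trimmed mean, quantile, loess), with the floor at the 10th or 40th percentile, without the filter and with it at the 75th percentile. All 64 values moved by less than 0.57 on the log2 scale, the SD of the difference between paired probe sets of 19 genes. The median and trimmed mean scalings multiply an array by a constant, which centring on the shift takes out, so they could barely move these values. A change of filter moves the values of all 8 genes by the same amount. Relative log2 ratios ranged from -1.78 to -1.61 for Cyp2c55, from -1.67 to -1.47 for Cyp2b10, from -1.07 to -0.91 for Akr1c20 and from 1.03 to 1.40 for Gstp1. Cyp2c29 ranged from -0.50 to 0.01, so its sign depends on the setting. The count of members at least 2-fold lower, 2 as reported, was 3 without the filter, which added Akr1c20, 1 with the filter at the 75th percentile, which left out Cyp2c55, 3 at a 1.5-fold threshold, 1 at a 3-fold threshold and 0 by SLR. The count of members higher, 1 as reported, was 0 at a 3-fold threshold and 4 by SLR. For the other xenobiotic genes, the count lower (0 as reported) was 1 without the filter, 1 at a 1.5-fold threshold and 2 by SLR. The count higher (2 as reported) was 1 without the filter, 1 with the filter at the 75th percentile, 0 at a 3-fold threshold, 3 at a 1.5-fold threshold and 3 by SLR. The count of members with a value below 0 was 3 by SLR and 7 by relative log2 ratio. The cause of the difference between SLR and signals was not tested. No paired analysis was possible because each diet has 1 array. Probe sets near the floor have the least certain ratios.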

Other observations

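A pair of further genes of the same families, in none of the lists, was chosen after the values had been seen, and its members stand for no pattern. The cholesterol exporter Abca1 had a signal of 151.3 on the high-glucose array and 466.6 on the control array, a relative log2 ratio of -0.65 and, by the authors' deposited table, an SLR of -0.4. The folate enzyme Aldh1l1 had a relative log2 ratio of -0.35, and the authors' deposited table gave it -0.3.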
